A study of Danio rerio with 6 samples.

Results

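The genes described here are 9 zebrafish hox genes of paralogue groups 6 to 9, *hoxb6a*, *hoxc6a*, *hoxb7a*, *hoxb8a*, *hoxc8a*, *hoxb9a*, *hoxa9b*, *hoxc9a* and *hoxd9a*. In the same order their identifiers are ENSDARG00000010630, ENSDARG00000070343, ENSDARG00000056030, ENSDARG00000056027, ENSDARG00000070346, ENSDARG00000056023, ENSDARG00000056819, ENSDARG00000092809 and ENSDARG00000059274. They were chosen by Ensembl identifier and not by a cut on their values, but with earlier results of these data known. All 9 are among the 32057 genes of the deposited table. Their expression was compared between neural crest (NC) cells with a high and a low response to a Wnt reporter. The question is how much RNA of trunk-level hox genes each sorted population held.

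The cells came from embryos of the AB strain at 24 hpf that carried both Tg(7XTCF:nls-mCherry)ia5, a nuclear red reporter driven by TCF binding sites, and Tg(-7.2sox10:EGFP)ir937, a green label driven by a *sox10* promoter fragment. Green cells were sorted into mCherry+ (high-Wnt) and mCherry− (low-Wnt) populations, with 3 libraries of each, so both populations carry every allele and were told apart by the reporter level alone. The *sox10* fragment labels NC cells, and *sox10* is also active in the otic epithelium. The paper presents the sorted populations as migrating cranial NC cells, with views of the head in its diagram of the sort. The methods describe the dissociation of embryos and do not state that heads were separated from trunks before this sort. Whether the libraries of 1 population came from separate clutches is not stated either, so the spread between them may be partly technical. Values are TPM, a measure of transcript abundance, which are corrected for transcript length and scaled to a fixed total in each library, and they keep no sequencing depth.

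Hox genes encode homeodomain transcription factors that sit in clusters, and their order in a cluster follows the order of their expression domains along the body axis. Groups at the 3′ end of a cluster act in the hindbrain and the pharyngeal arches. Groups 6 to 9 start to be expressed at successively more posterior levels of the trunk, and groups 10 to 13 act in the posterior trunk and tail. The neural tube, the somites and the NC cells of a given level share much of this code, whereas the cranial NC cells of the first pharyngeal arch form without hox expression. The 9 genes lie in 4 clusters. In the RefSeq annotation of assembly GRCz12tu, *hoxb9a*, *hoxb8a* and *hoxb7a* are direct neighbours and *hoxb6a* lies within the long span annotated for *hoxb3a*. *hoxc6a*, *hoxc8a* and *hoxc9a* lie within the span annotated for *hoxc3a*, and *hoxa9b* and *hoxd9a* overlap no other hox gene there. Where such genes share exons, reads are split between them by estimation, and whether they do in the annotation used for these values was not examined.

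Low-Wnt replicate 3 stood apart from the other libraries. At 1 TPM or more, 9230 genes were seen in it and 13481 to 14417 in each of the others. Its median log2 ratio to the mean of low-Wnt replicates 1 and 2, with 1 TPM added to both, was -1.23 over the tested genes. The comparisons of hox genes are therefore given with and without it. *sox10* and the genes examined as Wnt targets gave a mixed picture. *sox10* was at 243.7 to 342.7 TPM in high-Wnt cells and in the low-Wnt libraries at 258.6, 239.6 and 72.9 TPM. Of the genes examined as Wnt targets, *axin2* and *lef1* overlapped between the populations. *sp5a* was lower in every high-Wnt library (5.90 to 7.36 TPM) than in every low-Wnt library (15.98 to 19.15 TPM). None of these genes was thus higher in every high-Wnt library than in every low-Wnt library. Every high-Wnt library was below every low-Wnt library for 789 of the 14163 tested genes.

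All 9 hox genes were detected in every library, at 1.55 TPM or more, so none depended on a filter for low values. *hoxb7a* had the highest level in each of the 6 libraries, as the plot of TPM by gene and library shows. In high-Wnt cells it averaged 47.4 ± 2.13 TPM (SD, n = 3), followed by *hoxd9a*, *hoxb8a*, *hoxa9b*, *hoxc9a*, *hoxb6a*, *hoxb9a*, *hoxc6a* and *hoxc8a*. The libraries of neighbours in this order overlapped for *hoxd9a* and *hoxb8a*, for *hoxa9b* and *hoxc9a*, and among the last 3 genes. In low-Wnt cells *hoxb7a* averaged 44.8 ± 10.2 TPM (SD, n = 3) and the order below it was *hoxb8a*, *hoxd9a*, *hoxb6a*, *hoxb9a*, *hoxc6a*, *hoxc8a*, *hoxc9a* and *hoxa9b*, with overlap between all neighbours. By mean TPM *hoxa9b* thus stood at rank 4 of the 9 in high-Wnt cells and at rank 9 in low-Wnt cells. In no single low-Wnt library was it the lowest, since *hoxc9a* was lower in replicate 1, *hoxc8a* in replicate 2 and *hoxc6a* in replicate 3.

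**Figure D1:**
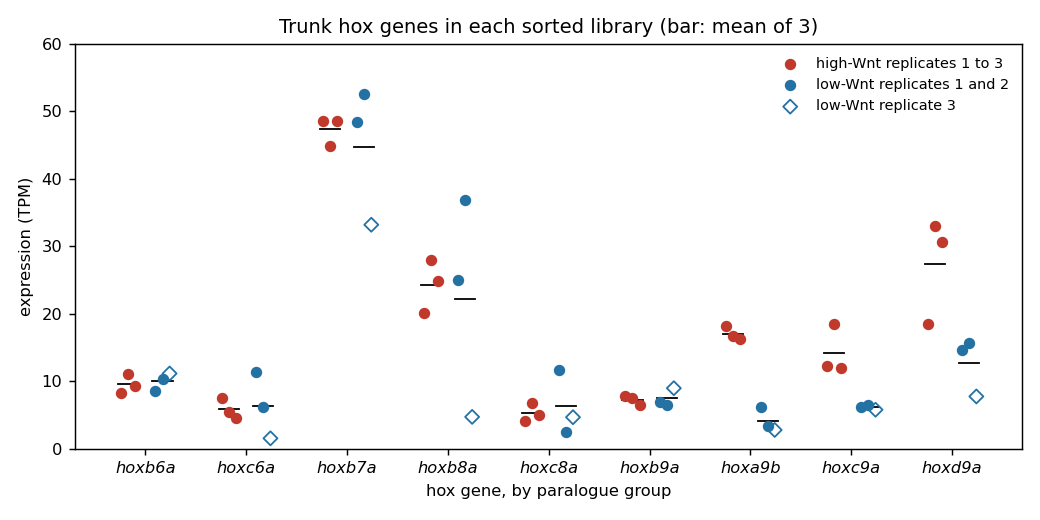
TPM of each of the 9 hox genes (x axis) in the 6 libraries, with red points for high-Wnt replicates, filled blue points for low-Wnt replicates 1 and 2, an open diamond for low-Wnt replicate 3, and black bars for the mean of each population. The red points lie above all blue points for *hoxa9b*, *hoxc9a* and *hoxd9a*, and the colours overlap for the other 6 genes.

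Among the 9 genes, 3 of group 9 differed in TPM between the sorted populations without overlap, and the 6 others overlapped. *hoxa9b*, *hoxc9a* and *hoxd9a* were on average 4.10, 2.32 and 2.16 times as high in high-Wnt as in low-Wnt cells. Without low-Wnt replicate 3 these ratios were 3.52, 2.25 and 1.81. Lack of overlap was common in this table, since every high-Wnt library exceeded every low-Wnt library for 22.4% of the 14163 tested genes, and for 25.1% of 15000 without low-Wnt replicate 3. In limma on log2(TPM + 1) with all 6 libraries, none of the 9 genes passed a Benjamini-Hochberg adjusted p of 0.05, where 0.367% of all tested genes did. At an unadjusted p under 0.05 there were 3 of the 9, all higher in high-Wnt cells, against 11.7% of all tested genes in that direction. Without low-Wnt replicate 3, *hoxa9b* and *hoxc9a* were DE and higher in high-Wnt cells, where 7.17% of all tested genes were. With limma's sample quality weights all 3 were DE and higher, where 18.2% of all tested genes were. These weights also counted high-Wnt replicate 1 and low-Wnt replicate 1 for less than replicate 2 of the same population. In bulk libraries, fewer cells that express a gene and less RNA of it per cell cannot be told apart.

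The plot of the log2 fold changes sets both fits side by side. The median log2 fold change of the 9 genes was 0.14 with all 6 libraries, against 0.51 for all tested genes. Without low-Wnt replicate 3 it was 0.02, against 0.05 for all tested genes.

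**Figure D2:**
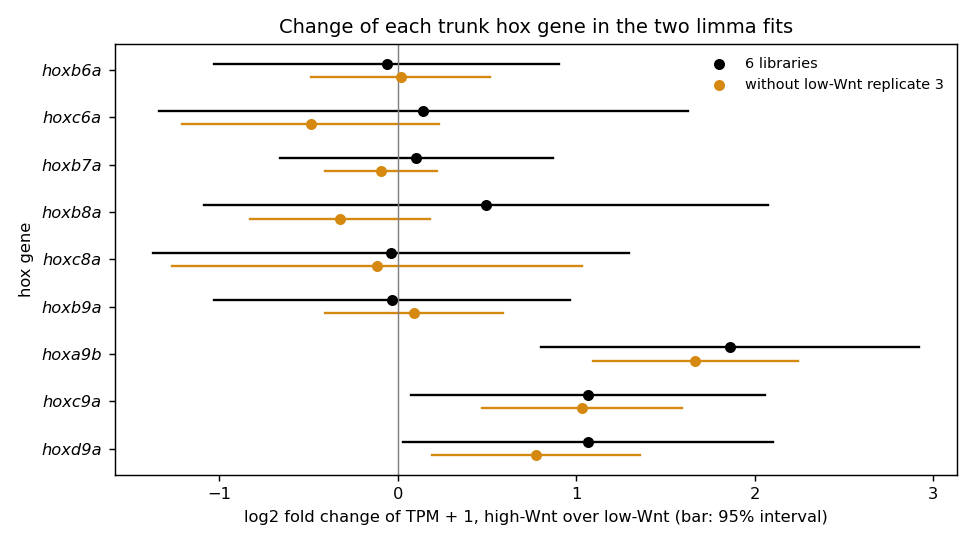
Log2 fold change of TPM + 1 (x axis, high-Wnt over low-Wnt) for each of the 9 hox genes (y axis), from the fit on 6 libraries (black) and from the fit without low-Wnt replicate 3 (orange). Points are estimates and bars are their 95% intervals. The bars of *hoxa9b*, *hoxc9a* and *hoxd9a* lie to the right of 0 in both fits, and the bars of the other 6 genes span it.

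*hoxb6a* and *hoxc6a* belong to group 6, whose genes are switched on near the start of the trunk. For *hoxb6a* the high-Wnt replicates 1, 2 and 3 gave 8.32, 11.08 and 9.24 TPM, and the low-Wnt replicates, in the same order as throughout, gave 8.52, 10.28 and 11.16 TPM. The ranges nearly coincided, and low-Wnt replicate 3 was the highest of the 6. Its log2 fold change was -0.06 (95% interval -1.03 to 0.91, limma adjusted p = 0.94), and 0.02 (interval -0.49 to 0.52) without low-Wnt replicate 3. *hoxc6a*, which in mouse and chick marks spinal levels of the forelimb, was at 7.55, 5.47 and 4.57 TPM in high-Wnt cells and at 11.40, 6.22 and 1.55 TPM in low-Wnt cells. The low-Wnt libraries held both its highest and its lowest value. The log2 fold change was 0.14 (interval -1.34 to 1.63, limma adjusted p = 0.91) and turned to -0.49 (interval -1.21 to 0.23) without low-Wnt replicate 3, so its direction was not set by these libraries.

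*hoxb7a*, the only gene of group 7 among the 9, was the most abundant and did not separate the populations. The high-Wnt libraries gave 48.55, 44.90 and 48.62 TPM, and the low-Wnt libraries gave 48.42, 52.62 and 33.21 TPM. Low-Wnt replicates 1 and 2 were within the spread of the high-Wnt libraries or above it, and replicate 3 was below. The log2 fold change was 0.11 (interval -0.66 to 0.87, limma adjusted p = 0.87), and without low-Wnt replicate 3 it was -0.09 with the narrowest interval of the 9 genes (-0.40 to 0.22). Within each library *hoxb7a* lay between the 92.4 and the 94.1 percentile of all listed genes. The 94.1 was in low-Wnt replicate 3, where its TPM was lowest. Fewer genes were detected in that library, so its percentiles do not compare directly with those of the others.

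The group 8 genes did not separate the populations either. *hoxb8a*, whose mouse counterpart acts in forelimb and spinal patterning, was at 20.19, 28 and 24.82 TPM in high-Wnt cells. In low-Wnt cells it reached 25.08 and 36.84 TPM in the first pair of libraries and only 4.73 TPM in replicate 3. That library decided the sign, with a log2 fold change of 0.50 (interval -1.08 to 2.07, limma adjusted p = 0.71) with it and -0.32 (interval -0.83 to 0.18) without it. *hoxc8a*, known from mouse for the identity of thoracic vertebrae, was at 4.11, 6.73 and 4.95 TPM in high-Wnt cells and at 11.65, 2.53 and 4.68 TPM in low-Wnt cells. Low-Wnt replicates 1 and 2 were the highest and the lowest of the 6 libraries, so the spread within low-Wnt cells covered all high-Wnt values. The log2 fold change was -0.04 (interval -1.37 to 1.3, limma adjusted p = 0.98), and -0.11 (interval -1.26 to 1.03) without low-Wnt replicate 3. These intervals are wide, and differences within them in either direction were not detectable with these libraries.

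The group 9 genes, which in mouse act together in the lower thoracic and lumbar region, did not move alike. *hoxb9a* was at 7.86, 7.46 and 6.47 TPM in high-Wnt cells and at 6.97, 6.50 and 8.98 TPM in low-Wnt cells. The populations overlapped, with the highest value in low-Wnt replicate 3. Its log2 fold change was -0.03 (interval -1.03 to 0.97, limma adjusted p = 0.97), and 0.09 (interval -0.41 to 0.59) without low-Wnt replicate 3. For *hoxa9b* the high-Wnt libraries gave 18.18, 16.79 and 16.24 TPM, and the low-Wnt libraries gave 6.25, 3.45 and 2.79 TPM. The lowest high-Wnt library was well above the highest low-Wnt library. On the log2 scale the change with all 6 libraries was 1.86 (SE 0.46, limma adjusted p = 0.13), and without low-Wnt replicate 3 it was 1.67 (SE 0.25, limma adjusted p = 0.0075), where SE is the standard error.

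*hoxc9a*, which in mouse sets the identity of thoracic motor neurons, was at 12.21, 18.56 and 11.92 TPM in high-Wnt cells and at 6.20, 6.43 and 5.79 TPM in low-Wnt cells. In TPM the low-Wnt libraries agreed closely with each other, low-Wnt replicate 3 included, and all lay below the high-Wnt libraries. By percentile within the library they did not, though those of low-Wnt replicate 3 do not compare directly, since fewer genes were detected in it. Low-Wnt replicate 3 was at 85.79, above the high-Wnt replicates (81.23, 85.45 and 81.58). Low-Wnt replicates 1 and 2 were at 74.41 and 75.48. The log2 fold change was 1.07 (SE 0.43, limma adjusted p = 0.32), and 1.03 (SE 0.24, limma adjusted p = 0.032) without low-Wnt replicate 3. *hoxd9a* was at 18.54, 33.03 and 30.66 TPM in high-Wnt cells and at 14.59, 15.72 and 7.76 TPM in low-Wnt cells. High-Wnt replicate 1 was close to low-Wnt replicate 2, and the other high-Wnt libraries were far above. By percentile, with the same limit, low-Wnt replicate 3 (87.58) was above high-Wnt replicate 1 (85.55). For *hoxa9b* low-Wnt replicate 3 was at 80.48, below the high-Wnt replicates (85.33, 84.41 and 84.66). For *hoxd9a* in TPM, the fits were as follows. The log2 fold change was 1.07 (SE 0.45, limma adjusted p = 0.34), and 0.77 (SE 0.25, limma adjusted p = 0.081) without low-Wnt replicate 3, so *hoxd9a* did not pass the threshold in either fit.

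The 9 genes were not equally low in low-Wnt replicate 3. Against the mean of low-Wnt replicates 1 and 2, its log2 ratio with 1 TPM added was -2.48 for *hoxb8a* and -1.94 for *hoxc6a*. It was 0.37 for *hoxb9a*, 0.23 for *hoxb6a* and -0.11 for *hoxc9a*. For 7 of the 9 genes it was above the -1.23 that was the median of all tested genes.

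Ratios between genes of 1 library do not depend on how the library was scaled. The 9 genes summed to 145.5, 172.0 and 157.5 TPM in the high-Wnt libraries and to 139.1, 140.6 and 80.7 TPM in the low-Wnt libraries. Group 9 made up 39.0%, 44.1% and 41.5% of these sums in high-Wnt cells and 24.5%, 22.8% and 31.4% in low-Wnt cells, as the plot of shares by library shows. *hoxa9b*, *hoxc9a* and *hoxd9a* alone, a set picked after their values were seen, made up 33.6%, 39.8% and 37.3% in high-Wnt cells. Their share was 19.4%, 18.2% and 20.3% in low-Wnt replicates 1, 2 and 3. In this share low-Wnt replicate 3 lay beside the other low-Wnt libraries, whereas in the share of the whole of group 9 it lay between them and the high-Wnt libraries. Group 7 took 26.1% to 33.4% of the sum in the high-Wnt libraries and 34.8% to 41.2% in the low-Wnt libraries. Group 6 took 8.77% to 10.9% and 11.7% to 15.8%, and the shares of group 8 overlapped. The shares of 1 library are not independent, since a larger share of group 9 leaves less for the others. The TPM of the group 6 and 7 genes overlapped between the populations.

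**Figure D3:**
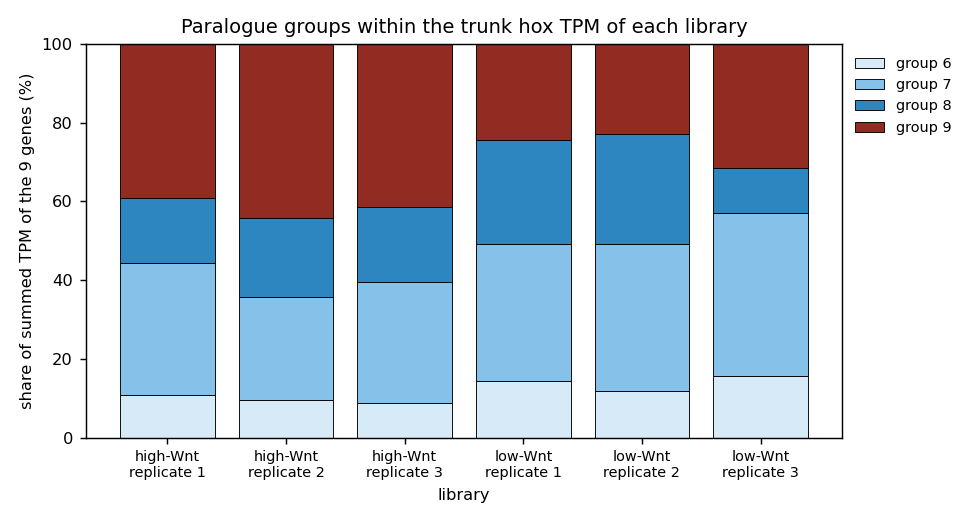
Share of the summed TPM of the 9 hox genes (y axis, percent) that each paralogue group made up in each of the 6 libraries (x axis), stacked from group 6 at the bottom to group 9 at the top. The dark red part for group 9 is 39.0% to 44.1% in the high-Wnt libraries and 22.8% to 31.4% in the low-Wnt libraries.

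The remaining hox genes of groups 6 to 9 were also examined. *hoxa9a*, the other copy of *hoxa9b*, was at 7.27, 5.82 and 6.96 TPM in high-Wnt cells and at 0.06, 0 and 0.47 TPM in low-Wnt cells. It was nearly confined to the high-Wnt libraries and passed the filter for low values only through them. It was DE with all 6 libraries (log2 fold change 2.72, SE 0.36, limma adjusted p = 0.039) and without low-Wnt replicate 3 (log2 fold change 2.89, limma adjusted p = 0.0013), whereas leaving out any 1 of the other 5 libraries gave a log2 fold change of 2.62 to 2.81 (limma adjusted p from 0.12 to 0.26) in fits that called no gene of the table. With all 6 libraries the call was also lost with a pseudocount of 0.1 TPM, no filter, quantile normalization, median centring or no variance trend (limma adjusted p from 0.057 to 0.22). Under the filter on a mean TPM of at least 5 *hoxa9a* was not tested. *hoxb6b*, *hoxc6b* and *hoxb8b* were not DE in either fit. Of these, *hoxc6b* was at 2.11 to 3.35 TPM in high-Wnt cells and at 0.78, 1.22 and 0 TPM in low-Wnt cells, and the other 2 genes overlapped.

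Further along the clusters, groups 10 to 13 hold 18 genes in the table. Every high-Wnt library exceeded every low-Wnt library for 16 of the 18, against 20.6% of the 23455 genes above 0 in any library. In the low-Wnt libraries 6 of the 18 stayed under 1 TPM, 4 of them at 0 throughout. For these the comparison rests on low-Wnt values near the detection floor. Their summed level was 70.9, 99.4 and 89.5 TPM in the high-Wnt libraries and 24.2, 21.9 and 19.7 TPM in the low-Wnt libraries. No gene of the list was DE with all 6 libraries, where 12 could be tested. Without low-Wnt replicate 3, 8 of the 18 were DE and higher in high-Wnt cells, against the 7.17% of all tested genes given above, 6 were tested and not DE, and 4 were too low to be tested. Some of the 8, named below, passed the filter for low values only through the high-Wnt libraries, which favours calls in that direction.

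The genes of groups 10 to 13 that were DE without low-Wnt replicate 3 lay in all 4 kinds of cluster. *hoxa10b* was at 8.97 to 11.18 TPM in high-Wnt cells and at 1.20 to 4.05 TPM in low-Wnt cells (log2 fold change without low-Wnt replicate 3 of 1.47, limma adjusted p = 0.018). *hoxd10a* was at 9.79 to 16.39 and 2.68 to 5.33 TPM (1.57, adjusted p = 0.020). *hoxd12a* was at 5.68 to 9.60 and 0.65 to 1.66 TPM (1.96, adjusted p = 0.011). *hoxc11a* was at 3.30 to 6.88 and 0.57 to 1.28 TPM. *hoxb13a* was at 1.31 to 3.16 TPM in high-Wnt cells and listed at 0 in the 3 low-Wnt libraries, and it passed the filter only through the high-Wnt libraries. For 3 further DE genes the gene table gives a symbol that 2 copies share. ENSDARG00000007009, listed as HOXA11, was at 12.15, 15.28 and 16.90 TPM in high-Wnt cells and at 4.18, 4.67 and 4.04 TPM in low-Wnt cells. ENSDARG00000070352, listed as HOXC12, was at 3.03 to 6.15 and 0 to 1.58 TPM. ENSDARG00000070353, listed as HOXC13, was at 3.43 to 6.23 and 0 to 3.54 TPM, with low-Wnt replicate 3 above the lowest high-Wnt library. *hoxd12a*, ENSDARG00000070352 and ENSDARG00000070353 also did not reach 1 TPM in both low-Wnt replicates 1 and 2. They too passed the filter of the fit without low-Wnt replicate 3 only through the high-Wnt libraries. The plot of fold changes by paralogue group places these genes beside the 9.

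**Figure D4:**
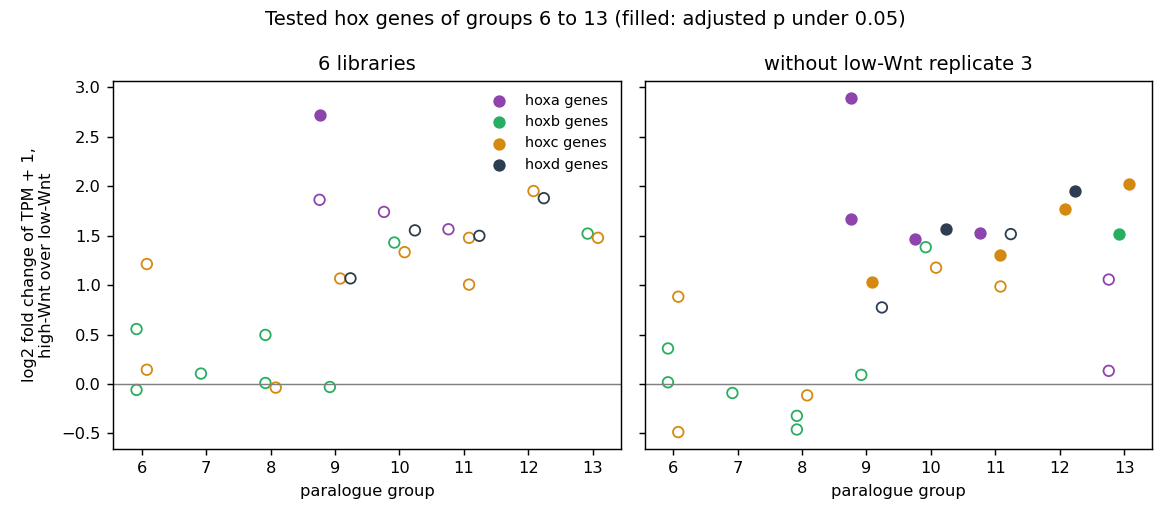
Log2 fold change of TPM + 1 (y axis, high-Wnt over low-Wnt) for each tested hox gene of groups 6 to 13 (x axis), with all 6 libraries on the left and without low-Wnt replicate 3 on the right. Colours give the cluster type and filled circles mark an adjusted p under 0.05. Groups 6 to 8 scatter around 0 on the right, from -0.49 to 0.88, whereas *hoxa9a* reaches 2.89 and the tested genes of groups 10 to 13 run from 0.13 to 2.03.

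Hox proteins bind DNA together with Pbx and Meis cofactors. The 10 cofactor genes examined were all tested, and none was DE in either fit. With all 6 libraries all 10 had a positive log2 fold change (median 0.65), and without low-Wnt replicate 3 the split was 5 positive and 5 negative (median -0.03), beside 0.51 and 0.05 for all tested genes. *cdx4*, a caudal factor that acts upstream of trunk hox genes, was at 1.03, 1.56 and 2.86 TPM in high-Wnt cells and at 0.56, 0.86 and 0.05 TPM in low-Wnt cells, without overlap and not DE. *cdx1a* was at 0.09 TPM or less, and *cdx1b* was listed at 0 in every library.

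Several markers of other cell types also differed between the populations. None of the genes in the neural tube, muscle, skin, otic, NC and blood lists was DE with all 6 libraries, and the calls given for them come from the fit without low-Wnt replicate 3. In that fit 7.17% of the 15000 tested genes were called higher in high-Wnt cells, and 836 genes were called lower. The 4 neural tube genes examined (*sox3*, *sox19a*, *elavl3* and *neurog1*, of which *elavl3* and *neurog1* also act in ganglia) summed to 113.8 to 139.9 TPM in high-Wnt cells and to 47.0, 57.0 and 23.0 TPM in low-Wnt replicates 1, 2 and 3. All 4 were DE and higher in high-Wnt cells without low-Wnt replicate 3, and with all 6 libraries their limma adjusted p was 0.11 to 0.40. In the fit without that library, *neurog1* passed the filter for low values only through the high-Wnt libraries, which favours a call in that direction. Low-Wnt replicate 1 held 0.60 TPM of *neurog1*, under the 1 TPM of the filter, whereas replicate 2 held 3.68 TPM. The 4 muscle and somite genes summed to 115.2 to 137.6 TPM against 31.9, 15.8 and 56.7 TPM, nearly all of it *tnnc2*, a muscle troponin. *tnnc2* and *myf5* were DE and higher without low-Wnt replicate 3. *tbxta*, which marks the notochord and tail bud, was at 3.55, 4.43 and 6 TPM in high-Wnt cells and listed at 0 in all low-Wnt libraries, and *tbx16* was also at 0 there. *tbxta* and *myf5* passed the filter for low values only through the high-Wnt libraries. *tbxta* was DE in both fits. Without any 1 of the other 5 libraries its log2 fold change was 2.31 to 2.62 (limma adjusted p from 0.12 to 0.23), in the same fits that called no gene. With all 6 libraries the call was lost with no filter, median centring or no variance trend (limma adjusted p of 0.083, 0.21 and 0.073). Under the filter on a mean TPM of at least 5 *tbxta* was not tested. The 3 skin genes summed to 1015 to 1262 TPM against 452.8, 585.9 and 199.5 TPM, with *krt4*, which makes up most of the high-Wnt sum, and *cdh1* DE and higher without low-Wnt replicate 3. The third skin gene, *epcam*, overlapped (154.1 to 166.1 against 136.2 to 168.6 TPM, log2 fold change 0.12). The 2 otic genes went the other way without that library (34.7 to 44.6 against 74.8 and 99.8 TPM, and 28.7 TPM in low-Wnt replicate 3), with *oc90* DE and lower in high-Wnt cells. The Wnt target gene *sp5a* was also DE and lower in high-Wnt cells without that library (log2 fold change -1.35, limma adjusted p = 0.0081). With all 6 libraries *sp5a* was not DE (limma adjusted p = 0.21). The 4 NC genes summed to 575.1 to 696.8 TPM in high-Wnt cells and to 461.6, 465.5 and 119.4 TPM in low-Wnt cells, with *foxd3* and *tfap2a* DE and higher without low-Wnt replicate 3. The 2 blood genes summed to 242.7 to 302.6 against 132.7, 164.9 and 320.8 TPM, nearly all of it *hbae3*, which was DE and higher without low-Wnt replicate 3. The part of these cell types in the hox values was not tested.

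**Figure D5:**
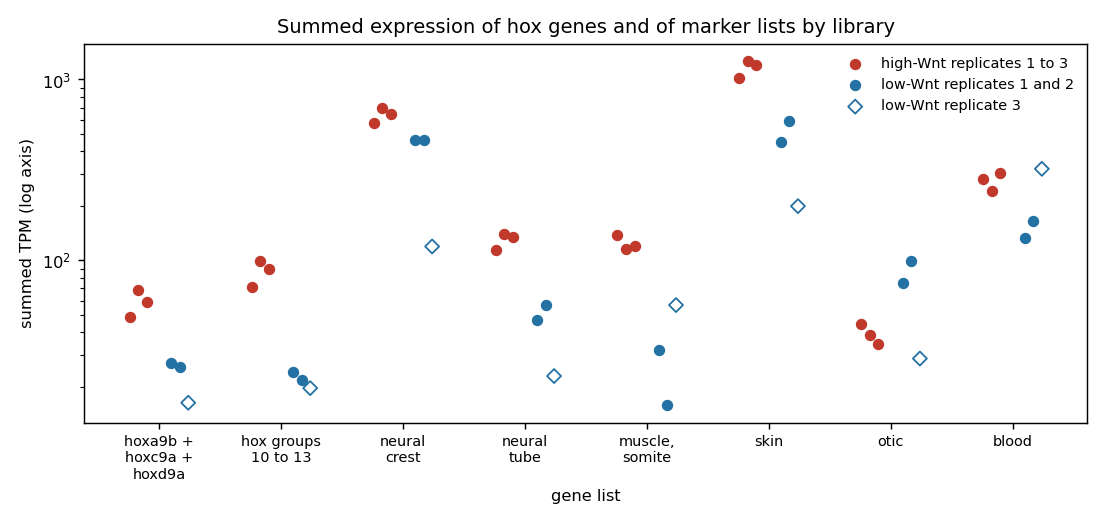
Summed TPM (y axis, log scale) of *hoxa9b*, *hoxc9a* and *hoxd9a*, of the hox genes of groups 10 to 13 and of 6 marker lists (x axis), with the same symbols for the 6 libraries as in the plot of TPM by gene. The sum over groups 10 to 13 and the NC, neural tube, muscle and skin sums are higher in every high-Wnt library than in every low-Wnt library, and the otic sum is lower in high-Wnt cells than in low-Wnt replicates 1 and 2. The first sum separates by construction, since its 3 genes were picked for lack of overlap after their values were seen. The muscle sum is nearly all *tnnc2* and the blood sum nearly all *hbae3*.

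The genes closest to the mean profile of the 9 were sought by the root mean square difference of log2(TPM + 1), centred on the mean of each gene over the 6 libraries. They were the genes listed as znf982 (0.05), FAM174B (0.06), SRGAP3 (0.06) and MFGE8 (0.07). Their log2 fold changes were 0.55 to 0.62 and none was DE with all 6 libraries. The 9 hox genes themselves lay 0.26 to 0.69 from their own mean, with *hoxb7a* nearest and *hoxa9b* farthest, so that mean describes no single member well.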

How the data were processed

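High-Wnt and low-Wnt NC cells, 3 Smart-seq2 libraries each, were grouped by their labels. The deposited values are TPM per Ensembl gene, which the authors made with STAR (mapping to GRCz11) and RSEM (quantification). The annotation release is not given in the sources used here, and TPM keeps no depth, so no counting error was derived. The authors' edgeR test takes counts and was not repeated. The paper reports far more DE genes from that test than the limma fit on all 6 libraries called here. The shares of genes called here thus belong to the limma fits.

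Genes that reached 1 TPM in 3 or more libraries (2 or more where a library was left out) were tested by limma 3.58.1, under R 4.3.3, on log2(TPM + 1), two-sided, with population as the only term and an intensity trend. The scale understates changes of low genes. Benjamini-Hochberg adjustment ran over all tested genes, and an adjusted p under 0.05 was called DE. The fit was tested on simulated data. Plots used matplotlib 3.10.9 in Python 3.11.15.

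Of 32057 identifiers, 28988 had a symbol in the gene table used here. It lists 8 of the 9 members by a mammalian symbol, and copy letters came with the choice of members. Some other hox genes, among them *hoxd10a*, *hoxc11a*, *hoxd12a* and *hoxb13a*, are also listed by a mammalian symbol, and their letters came with the lists. *hoxc6b* is listed as HOXC6, as *hoxc6a* is, and was taken as the identifier that is not a member. *sox9b*, *pax6a*, *fgf8a* and *wnt8a* matched no single identifier and were left out. RefSeq GRCz12tu served only for neighbours.

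The members and lists were chosen with earlier results of these data known. All 9 members are named, as is each listed gene that was DE in either fit, and the 4 genes most like the members. Alternatives were another pseudocount, other filters, quantile normalization, median centring, no trend, quality weights, a replicate block, and each library left out, also combined with 3 of these for low-Wnt replicate 3.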

Additional observations from a re-analysis of the deposited data

How the results depend on the processing

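With all 6 libraries none of the 9 hox genes was DE, and 12 of the 17 alternatives also gave 0. Across the 6 fits without 1 library the number was 0 to 2, with 2 only without low-Wnt replicate 3. The other 5 fits called 0 genes of the table by limma, where 1003 to 2962 had an unadjusted p under 0.05. The fit without low-Wnt replicate 3 gave 2 with quantile normalization, 2 with median centring and 2 with a pseudocount of 0.1 TPM, each time *hoxa9b* and *hoxc9a*. In these fits 949, 981 and 950 of the 15000 tested genes were called higher. Sample quality weights, which gave low-Wnt replicate 3 a weight of 0.037, gave 3, where 18.2% of all tested genes were called higher. Of 14 tested genes of groups 10 to 13, the fit without low-Wnt replicate 3 called 8, and 7.17% of all tested genes, higher. It called 6 with quantile normalization, 8 with median centring and 6 with a pseudocount of 0.1 TPM, beside the totals above. With all 6 libraries quality weights called all 12 tested. Some of these passed the filter only through high-Wnt libraries. The replicate block called 1, where 135 of 14163 tested genes were called higher. *hoxa9b*, *hoxc9a* and *hoxd9a* had a positive log2 fold change under all 17 alternatives, from 1.27 to 2.14, from 0.47 to 1.17 and from 0.47 to 1.32. Centring on medians moved the median of all tested genes from 0.51 to -0.08, and quantile normalization moved it to 0.02.

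The other 6 genes, DE under no alternative, changed sign in places. Sample quality weights gave log2 fold changes of 0.0064 for *hoxb6a*, -0.33 for *hoxc6a*, -0.13 for *hoxb7a*, -0.36 for *hoxb8a*, 0.55 for *hoxc8a* and 0.085 for *hoxb9a*. Quantile normalization gave -0.47 for *hoxc6a* and -0.13 for *hoxb7a*, and median centring gave -0.45 for *hoxc6a*, -0.49 for *hoxb7a* and -0.10 for *hoxb8a*. *hoxb6a*, *hoxc8a* and *hoxb9a* kept their negative sign and moved further from 0. They were at -0.56, -0.67 and -0.58 with quantile normalization and at -0.66, -0.63 and -0.63 with median centring. All 6 genes were thus negative under median centring. Without low-Wnt replicate 3, quantile normalization gave -0.57 for *hoxc6a*, -0.011 for *hoxb7a*, -0.26 for *hoxb8a* and 0.014 for *hoxb9a*, and median centring gave -0.55, -0.15, -0.38 and 0.031 for the same genes. A pseudocount of 0.1 TPM without that library gave 0.018 for *hoxb6a*, -0.55 for *hoxc6a*, -0.093 for *hoxb7a*, -0.33 for *hoxb8a* and 0.10 for *hoxb9a*. With each library left out in turn, the values ran from -0.16 to 0.025 for *hoxb6a*, -0.49 to 0.65 for *hoxc6a*, -0.091 to 0.23 for *hoxb7a*, -0.32 to 1.04 for *hoxb8a*, -0.46 to 0.46 for *hoxc8a* and -0.11 to 0.092 for *hoxb9a*. The cause was not tested.

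With the replicate block 0 of the 9 genes were DE, and the lowest adjusted p was 0.21, for *hoxa9b* (limma). For same-numbered libraries, the correlations of deviations from the population mean were 0.03, -0.01 and 0.14, not every library correlated best with its own number, and the numbers were not taken to pair them. Fits without low-Wnt replicate 3 rest on 2 low-Wnt libraries, and that library was known to stand apart before the fit was chosen. TPM keeps no depth, so the part of counting error in the spread is unknown.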
